A study of Mus musculus with 2 samples.

Results

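The genes described are 10 regulators of DNA methylation and imprint maintenance, Dnmt1, Dnmt3a, Dnmt3b, Dnmt3l, Uhrf1, Zfp57, Trim28, Ctcf, Tet1 and Tet3. They were taken by symbol from the 22380 protein-coding genes of the GENCODE vM1 annotation of the mouse genome (mm9), and all 10 were found. The data were 2 RNA-Seq libraries of whole brain at E17.5, 1 for each direction of a cross between inbred mouse strains. BxC was an F1 hybrid of a C57BL/6J mother and a CastEi/J father, and CxB was the reciprocal hybrid, with a CastEi/J mother. No treatment, transgene or deletion was given for either group, and the methods describe brains that were not pooled. Polyadenylated RNA was sequenced as reads of 36 bases, and the BxC library held 128944754 uniquely aligned reads and the CxB library 109719746. These totals sum a number on each of 36575945 and 31155725 lines that was taken from its values to be a read count, and they lie above the mean depth per library given in the methods.

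Each cross was analysed from a single library, and further BxC brains named in the methods were not analysed here. No test between the crosses was therefore possible, comparisons are between the 2 libraries alone, and intervals cover counting error only. The methods name the CxB brain as male. Xist had 142957 reads in BxC and 38 in CxB. The Y-linked genes Ddx3y, Eif2s3y, Kdm5d and Uty had 0 reads in BxC and 1296, 2916, 1772 and 602 in CxB. By these counts the BxC brain was female, so that cross and sex cannot be told apart. The 7 neuron markers summed to a level of 1718 in BxC and 1597 in CxB and were all detected, while none of the 5 germ cell and pluripotency markers reached 100 reads in either library. Of these, Pou5f1 and Nanog had 0 reads in both, which allows up to 3, Dazl had 46 in BxC and 33 in CxB, Ddx4 56 and 96, and Zp3 1 and 14. Over exons of protein-coding genes, 43.0% of BxC reads and 42.5% of CxB reads lay on the strand of the gene, so reads of overlapping genes on opposite strands could not be separated. The methods describe a dUTP step that keeps the strand, which these shares do not show.

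DNA methylation at CpG sites silences one parental copy of imprinted genes. Dnmt1 copies the mark onto the new strand after replication, where Uhrf1 recruits it to half-methylated sites, and Dnmt3a and Dnmt3b, helped in germ cells by Dnmt3l, place it on unmethylated DNA. Zfp57, a zinc finger protein that binds the methylated motif TGCCGC, brings the corepressor Trim28 to imprinted regions and protects them during early development. Ctcf binds unmethylated imprinting control regions, as at H19 and Igf2, and Tet1 and Tet3 oxidise methylated cytosine as a step towards its removal.

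Most of these regulators were well expressed in the embryonic brain. The level is given as reads per kb of annotated exon scaled to the library total (RPKM), counted on either strand. The level was at least 1 in both libraries for 8 of the 10 genes, compared with 54.1% of all protein-coding genes. Trim28 was highest, with 49.5 in BxC and 46.9 in CxB, followed by Dnmt1, Zfp57, Ctcf, Tet3, Dnmt3a, Tet1, Uhrf1, Dnmt3b and Dnmt3l. This order was the same in both libraries, and the counting intervals of neighbours in it did not overlap in either library. The order depended on the exon bases and on the counting. Over coding exons alone Ctcf, with 44.7 in BxC and 42.2 in CxB, and Zfp57, with 42.8 and 43.4, both stood above Dnmt1, with 41.7 and 40.2. Dnmt3a stood above Tet3 over coding exons, with 26.8 against 22.7 in BxC and 25.7 against 21.9 in CxB. Distinct positions were counted once each and scaled to the library total of such positions, so these levels are on another scale than RPKM. By distinct positions Ctcf, with 15.7 and 15.97, stood below Tet3, with 17.7 and 17.8.

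**Figure D1:**
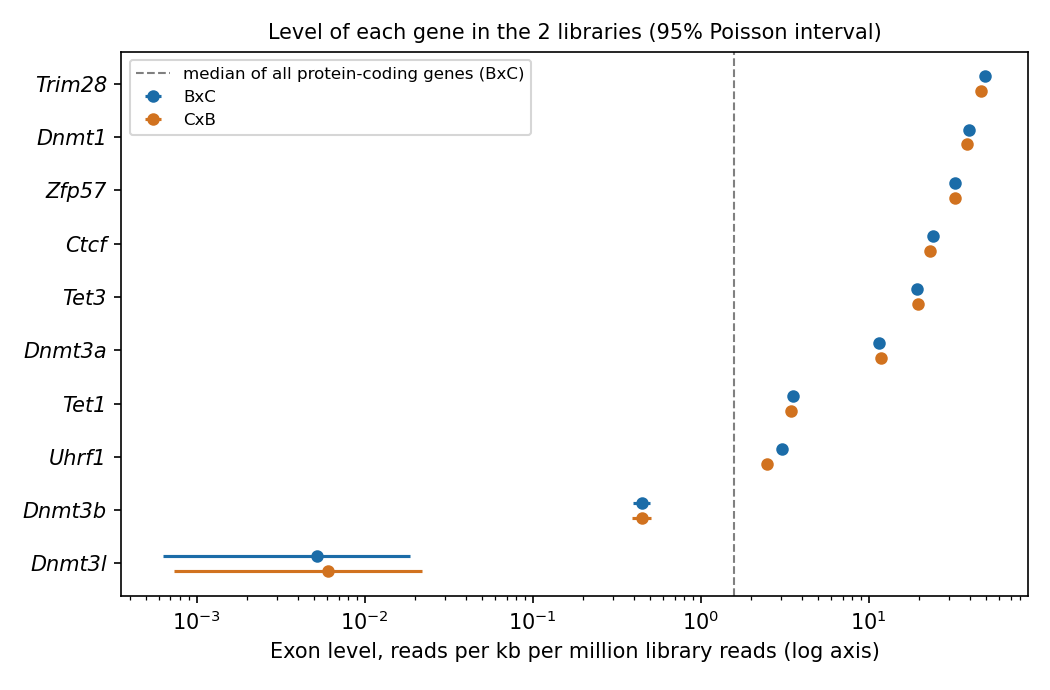
Exon level of each gene (x, log axis, RPKM) in BxC (blue) and CxB (orange), with 95% Poisson intervals of the count; the dashed line is the median of all protein-coding genes in BxC. Trim28 lies at 49.5 and 46.9, and Dnmt3b and Dnmt3l lie below the median of 1.57.

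Of the maintenance pair, Dnmt1 was much higher in level than Uhrf1, with 39.7 against 3.05 in BxC and 38.7 against 2.47 in CxB. By distinct positions the gap was smaller, with 26.1 against 4.39 and 26.05 against 3.97. Dnmt1 had 6.21 reads per distinct position in BxC and 6.00 in CxB, and Uhrf1 had 2.83 and 2.52. Dnmt1 (chr9:20711650-20757317, minus strand) had 26969 reads in BxC and 22335 in CxB. Its level was 39.7 (95% interval 39.3 to 40.2) in BxC and 38.7 (38.2 to 39.2) in CxB, above 95.8% of protein-coding genes in either library. All 38 annotated junctions between its exons were covered in both libraries. Reads in its introns were sparse, at 1.16% and 1.12% of the exon level, where the median over genes was 3.90% in both libraries.

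Dnmt1 is known to start from different first exons in somatic cells and in oocytes, so the reads that joined a first exon to the next one were counted. For spliced reads the authors used junctions of UCSC known gene models, not of GENCODE vM1. A junction without reads, here or in the other genes, can therefore lie outside those models. The annotated first exon (chr9:20757152-20757317) was joined by 24 BxC reads and 14 CxB reads. A donor at position 20756290 that the annotation does not hold was joined to the same exon by 5 BxC reads and 12 CxB reads, 17.2% (5.85 to 35.8) and 46.2% (26.6 to 66.6) of the total. The intervals overlapped, and each library had these reads at only 4 distinct positions. This donor lay in a block of reads outside annotated exons, chr9:20756249-20756507. The mean depth of that block (reads over a base, not scaled to library size) was 9.85 in BxC and 13.9 in CxB. Further upstream, the block chr9:20756628-20756976 had 53.8 and 47.8, against 178 and 210 over the annotated first exon. Another RefSeq start lies 7015 bases upstream of the annotated one, and the 50 bases after it had a depth of 0 in both libraries.

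RefSeq start windows, which run from 250 bases before a gene start to 50 after it, were matched exactly once in mm9 for all 10 genes and all 19 of their starts (sequences of build GRCm38.p6). The windows shown for Dnmt1 and Uhrf1 are those that overlap the first exons with the most junction reads. The RefSeq start of the Dnmt1 window lies 250 bases downstream of the annotated start, so the window covers the annotated first exon and bases after it, not bases before it. Capitals mark matches to the E2F motif, written TTTGGCGC or TTTCGCGC, and to the Nrf1 motif, a palindrome that appears as the run of 10 capitals. Both strands were searched, so the palindrome was counted once on each strand at the same bases, and no matches of different motifs overlapped.

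Dnmt1, chr9:20757018-20757317, minus strand: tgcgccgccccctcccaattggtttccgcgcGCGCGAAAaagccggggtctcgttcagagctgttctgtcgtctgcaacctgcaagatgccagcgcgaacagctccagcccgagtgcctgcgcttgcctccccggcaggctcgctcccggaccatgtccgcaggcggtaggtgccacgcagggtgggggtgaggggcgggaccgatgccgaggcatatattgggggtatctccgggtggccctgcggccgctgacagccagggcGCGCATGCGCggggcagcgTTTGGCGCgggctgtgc
Uhrf1, chr17:56443486-56443785, plus strand: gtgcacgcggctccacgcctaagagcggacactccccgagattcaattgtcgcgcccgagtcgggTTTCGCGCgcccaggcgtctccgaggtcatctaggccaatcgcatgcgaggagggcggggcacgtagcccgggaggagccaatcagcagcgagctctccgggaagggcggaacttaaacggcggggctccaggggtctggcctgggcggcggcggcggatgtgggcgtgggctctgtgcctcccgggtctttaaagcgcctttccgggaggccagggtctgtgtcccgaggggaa

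Both E2F forms were in the Dnmt1 window and TTTCGCGC was in the Uhrf1 window. TTTGGCGC was present in 0.514% and TTTCGCGC in 0.323% of all 32851 windows. The Nrf1 motif, held by 0.971% of all windows, was in the Dnmt1 window and in a second Dnmt1 window further upstream. Each of the 2 windows printed holds 33 CpG sites, more than 91.4% of all windows. The E2F and Nrf1 motifs contain CpG themselves, and their shares among windows this rich in CpG were not computed.

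Uhrf1 (chr17:56442744-56462909, plus strand) had the ratio farthest from 0 of the 9 genes compared between the libraries, counting reads over all exons. It had 1673 reads in BxC and 1156 in CxB, a level of 3.05 (2.90 to 3.20) in BxC and 2.47 (2.33 to 2.62) in CxB. The log2 ratio of CxB to BxC was -0.30 (-0.41 to -0.19), which did not pass 1.5-fold. Of all genes tested, 4.22% had a ratio at or below this one, and 8.15% had a ratio at least as far from 0 in either direction. Counting each aligned position once gave -0.14, so the difference was smaller without repeated reads. Over coding exons it was -0.315, and Dnmt3b was then farther from 0, at 0.33. Among the 7 proliferation markers, 0 passed 1.5-fold, near the share over all genes tested (0.411% higher and 0.497% lower in CxB). Of the 7, 6 had a log2 ratio below 0, compared with 50.56% of all genes tested, and the median was -0.09. Cdk1, the mitotic kinase, was lowest at -0.36, and Ccnb1, its cyclin, was the one above 0, at 0.19. The counting intervals of Ccnb1, Top2a, Mcm2 and Bub1 included 0. The 7 proliferation markers summed to a level of 28.5 in BxC and 25.7 in CxB, and 6 of them had a level of at least 1 in both libraries. The 4 blood markers matched had a median log2 ratio of -0.32 and summed to 310 in BxC and 252 in CxB. In the other marker lists with a median, it ran from -0.08 (endothelial) to 0.125 (astrocyte), and it was 0.03 for radial glia and progenitors. The part of any of these lists in the Uhrf1 value was not tested. In whole tissue, fewer cells of a type and less RNA per cell cannot be told apart.

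Uhrf1 has 3 annotated first exons with a donor of their own, and junction reads came from 2 of them. The one ending at position 56443816, whose window is printed above, gave 68 of 83 junction reads in BxC and 43 of 49 in CxB, 81.9% (72.0 to 89.5) and 87.8% (75.2 to 95.4). The more upstream one, ending at 56442984, gave 15 and 6 reads. The third had 0 reads in both libraries. The first exon ending at 56443816 thus carried most junction reads in either cross, with intervals that overlapped. By distinct positions the share of this exon was 87.0% in BxC and 79.2% in CxB. Depth was 131 and 81.3 in the 50 bases before its RefSeq start, higher than the 55.2 and 47.0 in the 50 after it.

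Of 5 partners of maintenance methylation, 0 passed 1.5-fold. Over all genes tested 0.411% passed it as higher and 0.497% as lower in CxB, so 0 in a list this short, here and in the lists that follow, lies near the background. For these partners the median log2 ratio was -0.09. Pcna, the replication clamp, was highest with a level of 19.2 in BxC and 16.8 in CxB. Hells, a chromatin remodeller needed for DNA methylation, was lowest with 1.07 and 0.969.

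The 3 genes of the Dnmt3 family spanned the range from high expression to near absence of reads. Dnmt3a (chr12:3806007-3914443, plus strand) had 24780 BxC reads and 21548 CxB reads, a level of 11.5 (11.4 to 11.7) and 11.8 (11.6 to 11.96). Dnmt3b (chr2:153475186-153513466, plus strand) had 293 and 250 reads and a level of 0.445 (0.396 to 0.499) and 0.446 (0.393 to 0.505). Dnmt3l (chr10:77504692-77526367, plus strand), the cofactor without catalytic activity of its own, had 2 reads in each library and a level whose upper limit was 0.0188 in BxC and 0.0220 in CxB. Dnmt3a alone of the family thus had more than 293 reads, and its level stood above 82.6% of genes in BxC and 83.0% in CxB.

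Dnmt3a makes a long protein and a shorter one, Dnmt3a2, which starts from a promoter inside the gene. Junction reads came from the first exons of both forms. Of reads entering the first exon that the forms share (from position 3895543), 139 of 213 in BxC and 106 of 155 in CxB came from the exon before it in the long form, 65.3% (58.5 to 71.6) and 68.4% (60.4 to 75.6). The internal first exon, ending at position 3891860, gave 73 and 48 reads, 34.3% (27.9 to 41.1) and 31.0% (23.8 to 38.9). These reads lay at 10 and 5 distinct positions, and by positions the internal share was 22.7% and 14.3%. The long form was the majority by either count in both libraries, and the shares of the libraries overlapped.

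The depth along the gene gave a further view of the same forms. The internal first exon had a mean depth of 25.9 in BxC and 22.5 in CxB over its own bases, but 0.54 and 0.18 in the 50 bases after the internal RefSeq start, so reads covered its later part. The 5 coding exons found in the long form alone had 176 and 138, and the 17 shared coding exons had 109 and 89.8. Depth was therefore not higher after the internal start than before it.

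The start windows of the long and the short form are shown because they differ in CpG content, with each CpG in capitals.

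Dnmt3a, upstream start, chr12:3806730-3807029, plus strand: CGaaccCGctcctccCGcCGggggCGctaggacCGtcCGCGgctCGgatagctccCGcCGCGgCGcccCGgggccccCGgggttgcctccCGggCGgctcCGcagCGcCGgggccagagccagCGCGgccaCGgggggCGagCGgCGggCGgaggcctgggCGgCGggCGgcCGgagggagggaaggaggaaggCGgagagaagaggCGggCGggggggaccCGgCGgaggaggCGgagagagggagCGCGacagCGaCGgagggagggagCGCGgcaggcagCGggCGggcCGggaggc
Dnmt3a, internal start, chr12:3891494-3891793, plus strand: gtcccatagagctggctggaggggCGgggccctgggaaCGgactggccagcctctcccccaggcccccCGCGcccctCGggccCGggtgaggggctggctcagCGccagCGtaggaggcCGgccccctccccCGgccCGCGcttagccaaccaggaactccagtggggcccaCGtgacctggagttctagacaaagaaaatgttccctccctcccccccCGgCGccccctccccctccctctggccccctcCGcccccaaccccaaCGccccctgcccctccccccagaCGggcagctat

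The upstream window lies after the first exon ending at position 3806602 and before the one ending at 3807120. It holds 46 CpG sites, more than 98.4% of all windows, and the internal window holds 18, more than 70.3%, where the median of all windows was 7. At the upstream end, first exons ending at positions 3806602 and 3807120 were both joined to the next exon, by 86 and 34 reads in BxC and by 47 and 28 in CxB. The first of these had 71.7% (62.7 to 79.5) of the reads in BxC and 61.8% (49.98 to 72.8) in CxB. By distinct positions its share was 55.2% and 34.4%, so that in CxB the other first exon then had the larger share. Mean depth over its own bases was also lower in both libraries, with 84.06 in BxC and 66.75 in CxB against 172 and 150 for the other. TGCCGC, the letters that Zfp57 binds when methylated, was present once in this upstream window, had 2 matches in a further upstream window (chr12:3806910-3807209) that overlaps it and shares that site, and was not found in the internal one. It also matched once in the Trim28 and Tet3 windows, and 11.6% of all windows hold it.

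Skipping of the Dnmt3a exons of 108 and 149 bases is annotated but had 0 reads in both libraries, which by the exact interval allows a skipping share of up to 5.44% and 4.74% in BxC and 6.98% and 5.44% in CxB. These limits count each read as independent. Junctions that include the exon of 108 bases had reads at 15 to 28 distinct positions, and those of the other exon at 13 to 24. For Dnmt3b, whose catalytic and inactive forms differ by cassette exons near the end of the coding region, splicing could not be assessed at this depth. The skipping junction over these exons (chr2:153504293-153511993) had 0 reads in both libraries, and the junctions of the included path had 1 read in all, in CxB. The gene had 25 junction reads in BxC and 22 in CxB, only 3 of its 27 annotated junctions were covered in both, and a further annotated cassette of 60 bases in the middle of the gene had 0 reads on any of its junctions. Intron reads of Dnmt3b reached 18.3% of the exon level in BxC and 22.8% in CxB. The quartiles over genes were 1.90% and 8.12% in BxC and 1.94% and 8.17% in CxB, so Dnmt3b was above the upper quartile.

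Zfp57 and Trim28, the pair that protects imprints, were both among the most abundant of the 10. Zfp57 (chr17:37138108-37147580, plus strand) had 16030 reads in BxC and 13653 in CxB, a level of 32.8 (32.3 to 33.4) and 32.9 (32.3 to 33.4). This level stood above 94.6% of protein-coding genes in either library. Intron reads of Zfp57 were 17.4% and 17.1% of the exon level, also above the upper quartile.

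The 5′ end of Zfp57 had reads over introns as well as exons, and few of its annotated junctions. The most upstream annotated first exon, ending at position 37138285, had a depth of 18.1 in BxC and 14.9 in CxB and 0 junction reads. The donor at position 37139722 was joined to an exon of 30 bases (chr17:37140231-37140260) by 45 and 31 reads, and this exon was joined to the next by 166 and 124. Reads skipping it numbered 5 and 1, a skipping share of 4.55% (1.49 to 10.3) and 1.28% (0.03 to 6.94). By distinct positions this share was 11.8% and 5.88%. The 30 bases also end an annotated first exon, whose other 248 bases (chr17:37139983-37140230) had a depth of 281 and 218. Reads leaving the 30 bases can thus come from transcripts that start there, and the skipping share counts them as inclusion. Upstream of both exons, outside any annotated exon, chr17:37139773-37139932 had a depth of 308 and 248. Of 12 annotated junctions of Zfp57, 6 were covered in both libraries and 6 in neither.

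Reads also ran past the annotated end of Zfp57. Depth was 229 in BxC and 192 in CxB over its last kb and 32.2 and 26.1 over the next kb. In the third kb, which holds no annotated exon, depth was 52.7 and 47.0. In the fifth kb, which also holds a 7SK copy, it was 80.7 and 61.6. From the sixth kb on it was below 1 in both libraries. The neighbouring gene Mog, which encodes a myelin protein and lies on the other strand, overlaps this stretch. Its 5 annotated exon blocks within 5 kb of Zfp57 had depths from 11.5 to 587 in BxC and from 16.4 to 434 in CxB, while its other 3 blocks had at most 0.11 in BxC and 0.32 in CxB. The block with 587 and 434, of 21 bases, lies in the fifth kb, which holds the 7SK copy. The level of Mog, 7.89 in BxC and 7.14 in CxB, thus rested on blocks close to Zfp57.

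**Figure D2:**
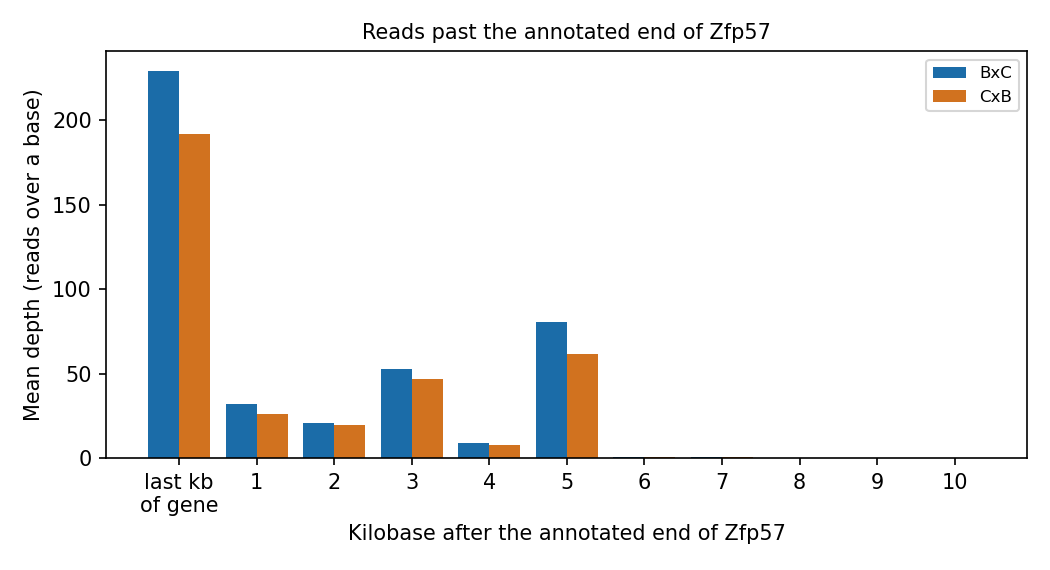
Mean depth (y, reads over a base) in the last annotated kb of Zfp57 and in each of the following 10 kb (x) in BxC (blue) and CxB (orange). Depth is 229 and 192 in the last kb and below 1 from the sixth kb on. Between these it is uneven, with 52.7 and 47.0 in the third kb and 80.7 and 61.6 in the fifth.

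A gap of 19 bases near the end of the last exon, chr17:37147500-37147518, was spanned by 227 BxC reads and 156 CxB reads at 6 and 7 distinct positions, and the annotation holds neither of its ends.

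Trim28 (chr7:13609501-13616384, plus strand) had 25832 reads in BxC and 20826 in CxB. Its level was 49.5 (48.9 to 50.2) in BxC and 46.9 (46.3 to 47.6) in CxB, above 97.0% and 96.8% of genes. All 16 annotated junctions were covered in both libraries. Its one first exon with a donor of its own was joined to the next exon by 1509 reads in BxC and 1142 in CxB. Depth was 771 and 665 over the 176 bases after the coding region and 289 and 224 over coding bases. It was also uneven among coding exons, with 631 and 468 over the second exon and 107 and 85.5 over chr7:13614013-13614127.

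All 10 partners of Trim28 in silencing were detected at a level of at least 1, and 0 passed 1.5-fold. Chd3, a remodeller of the NuRD complex, was highest with 115 in BxC and 112 in CxB. Hdac1, a histone deacetylase of the same complex, was lowest with 2.53 and 2.64, while its relative Hdac2 had 25.7 and 25.1. The median log2 ratio of the partners was -0.01.

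Ctcf (chr8:108160468-108206822, plus strand) had 15059 reads in BxC and 12406 in CxB, a level of 24.0 (23.7 to 24.4) and 23.3 (22.9 to 23.7). Of 3 annotated first exons with their own donor, the one ending at position 108160620 gave all 494 BxC junction reads and all 471 CxB junction reads. Its own bases had a depth of 113 and 112. The first exon ending at 108161479 had a depth of 19.85 and 14.47 over its own 514 bases, and the one ending at 108160864 had 2.30 and 4.73 over 30 bases. Skipping of the 2 exons that follow the second exon, an annotated junction, had 0 reads in both libraries against 60 and 26 reads that join the second of these to the next exon. Depth was uneven, with 866 and 661 over the exon chr8:108201115-108201250 and 801 and 637 over most of the next, against 28.0 and 28.1 over the exon chr8:108198769-108198929.

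Ctcf also had a pair of acceptors 3 bases apart with similar read counts. The first acceptor, whose intron ends at position 108203970, had 41 BxC reads and 38 CxB reads, and the second had 42 and 30. The share of the first was 49.4% (38.2 to 60.6) in BxC and 55.9% (43.3 to 67.9) in CxB, and by distinct positions 50% and 47.1%. Dnmt1 held a similar pair, of which only 1 is annotated, with 11 and 4 reads at the unannotated acceptor and 10 and 9 at the annotated one. Zfp57 had annotated acceptors 9 bases apart, of which the first took 64 of 72 BxC reads and 86 of 95 CxB reads, 88.9% (79.3 to 95.1) and 90.5% (82.8 to 95.6).

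The genome sequence at these choices is shown in the strand of the gene, with the last 2 bases of the intron at each acceptor in capitals.

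Ctcf, chr8:108203941-108203993: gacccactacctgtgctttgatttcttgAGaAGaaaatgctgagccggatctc
Dnmt1, chr9:20744976-20745028: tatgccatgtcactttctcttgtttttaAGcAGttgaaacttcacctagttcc
Zfp57, chr17:37142965-37143023: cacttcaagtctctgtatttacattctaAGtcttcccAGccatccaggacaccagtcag

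In Ctcf and Dnmt1 the acceptors follow each other directly, and the use of either changes the transcript by 3 bases. In the closely spaced pairs both acceptors had reads in both libraries, and the intervals of the libraries overlapped for all 3 genes.

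**Figure D3:**
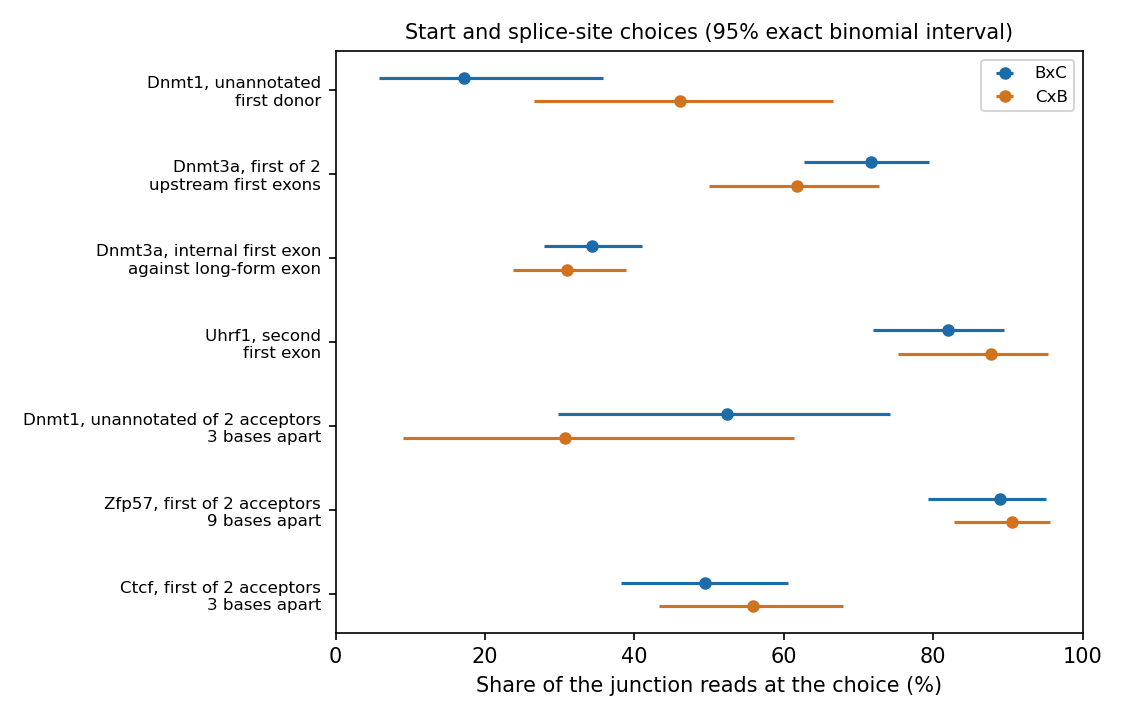
Share of junction reads (x, percent) at start and splice-site choices of Dnmt1, Dnmt3a, Uhrf1, Zfp57 and Ctcf in BxC (blue) and CxB (orange), with 95% exact binomial intervals; for Dnmt1 the acceptor plotted is the unannotated one. The intervals of the libraries overlap at each choice, and the Ctcf acceptors lie at 49.4% and 55.9%.

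The 7 genes of cohesin and its loading, which acts with Ctcf in chromatin looping, were all detected and 0 passed 1.5-fold. Rad21, the cohesin subunit cleaved at anaphase, was highest with 39.3 in BxC and 39.99 in CxB. Stag1 was lowest with 3.17 and 3.23. Their median log2 ratio was 0.03.

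Tet3 was the more abundant of the Tet genes. Tet3 (chr6:83312367-83391672, minus strand) had 27586 reads in BxC and 23798 in CxB, a level of 19.3 (19.1 to 19.5) and 19.6 (19.3 to 19.8). Its annotated start was sharply bounded, with a depth of 85.0 and 65.8 in the 50 bases after it and 3.96 and 4.48 in the 50 before. Its first exon was joined to the next by 23 reads in BxC and 26 in CxB. Tet1 (chr10:62267318-62361866, minus strand) had 6691 and 5534 reads and a level of 3.53 (3.44 to 3.61) and 3.43 (3.34 to 3.52).

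Tet1 depth was low over the exon that sets its long form apart. A full-length Tet1 and a short form without the N-terminal part, which holds the CXXC domain, are known, and the long form is typical of stem cells and germ cells. The exon that holds the start of the long coding region (chr10:62340900-62342881, 1982 bases) had a depth of 1.78 in BxC and 1.25 in CxB. The next exons downstream, shared by the long and the short form, had 18.5 and 9.81 (54 bases) and 38.9 and 28.4 (2203 bases). The annotated junctions on either side of the long-form exon had 0 reads in both libraries. The annotated short-form first exon (chr10:62327884-62328052) had a depth of 9.53 and 6.31 and was joined to the shared exon by 15 reads in BxC and 7 in CxB. That was all of the reads entering the shared exon, with a lower limit of 78.2% in BxC and 59.0% in CxB. These reads lay at only 4 distinct positions in BxC and 5 in CxB, and the limits count each read as independent.

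A further block of reads lay at a Tet1 start that RefSeq holds and the GENCODE vM1 annotation does not. Over chr10:62349939-62350129 (191 bases) the mean depth was 12.7 in BxC and 7.71 in CxB, and it was 0 on either side in both libraries. The RefSeq start at position 62350072 lies inside this block, and depth was higher in the 50 bases before it (27.7 and 17.48) than in the 50 after it (2.48 and 3.72). The window is shown with the 50 bases after the start in capitals, and it holds 17 CpG sites.

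Tet1, chr10:62350023-62350322, minus strand: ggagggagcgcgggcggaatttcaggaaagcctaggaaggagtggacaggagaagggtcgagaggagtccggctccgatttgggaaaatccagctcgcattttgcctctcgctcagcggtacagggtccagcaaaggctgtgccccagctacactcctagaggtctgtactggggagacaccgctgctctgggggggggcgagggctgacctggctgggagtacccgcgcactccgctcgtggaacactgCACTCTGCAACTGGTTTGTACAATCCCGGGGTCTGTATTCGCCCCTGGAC

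No read joined this block to another exon of Tet1. The authors aligned to splice junctions of UCSC known gene models, which are another annotation than GENCODE vM1. Whether those models held this start was not checked. The annotated first exon upstream of it (chr10:62361692-62361866) had a depth of 0.21 in BxC and 0 in CxB. In both libraries depth was thus higher at this block and at the short-form first exon than at the most upstream annotated one.

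**Figure D4:**
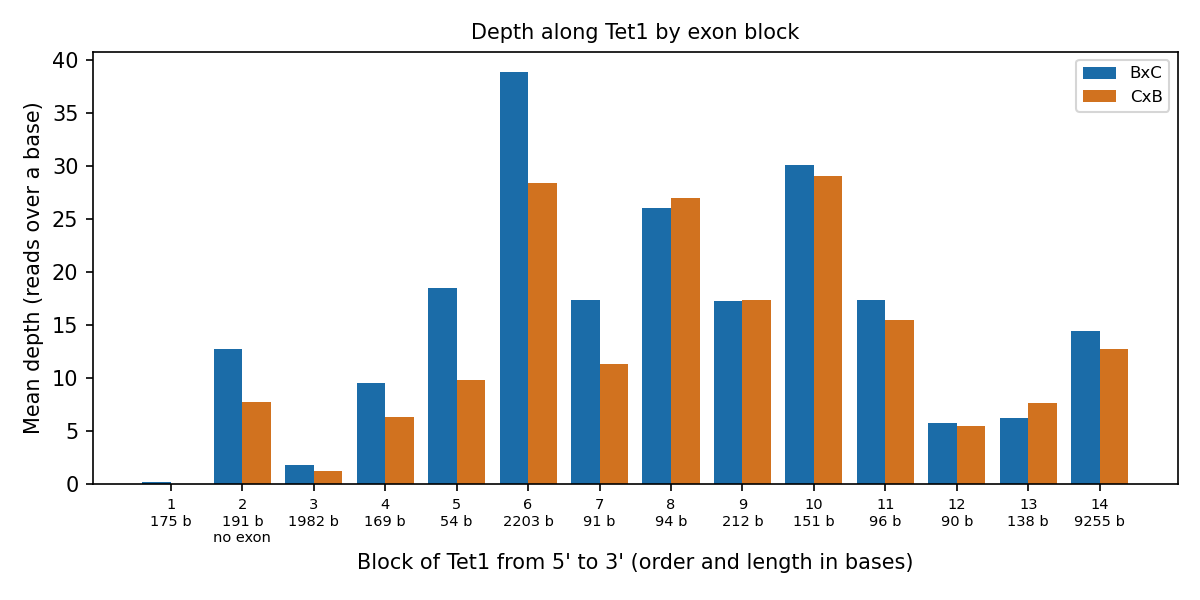
Mean depth (y, reads over a base) of 14 blocks of Tet1 in order from 5′ to 3′ (x, with lengths in bases) in BxC (blue) and CxB (orange); block 2 is covered without an annotated exon. The long-form exon, block 3, lies at 1.78 and 1.25, below the 12.7 and 7.71 of block 2 and the 9.53 and 6.31 of block 4.

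Among 9 other genes of DNA demethylation and repair, 8 had at least 100 reads in each library and 0 passed 1.5-fold. Apex1, the endonuclease of base excision repair, was highest with 28.0 in BxC and 28.3 in CxB. Gadd45b, which has been linked to active demethylation, was lowest with 0.815 and 0.698.

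Among 6 genes of the methyl-CpG-binding families, 0 passed 1.5-fold and the median log2 ratio was 0.10. Mbd3, a NuRD subunit that in mammals does not bind methylated CpG selectively, was highest with 74.2 in BxC and 79.1 in CxB, and Zbtb33 was lowest with 4.76 and 5.11. Of 7 imprint factors of the germ line and early embryo, 0 reached 100 reads in each library. Ctcfl, the germ-line relative of Ctcf, was highest with 0.268 and 0.249, and Nlrp2 had 0 reads in both. Of 8 other chromatin genes linked to imprinting, 0 passed 1.5-fold, with Ehmt2, an H3K9 methyltransferase, highest at 41.0 and 39.6, and Arid4b lowest at 3.62 in both libraries.

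Between the crosses, the levels of the regulators were close. Ratios were computed for 9 genes with at least 100 reads in each library, without Dnmt3l. Past 1.5-fold, 0 of the 9 were higher in CxB and 0 were lower, compared with 0.411% and 0.497% of the 13884 protein-coding genes with as many reads. The share of genes past this fold was so low that a count of 0 among 9 lies near it. The median log2 ratio was -0.04 for the 9 genes and -0.002 for all genes tested, with 5 genes below 0 and 4 above.

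Apart from Uhrf1, the log2 ratios ran from -0.08 for Trim28 to 0.03 for Dnmt3a. Counting reads over all exons, these 8 lay between the quartiles of all genes tested, which were -0.09 and 0.09. Over coding exons Tet1 was at -0.18, Trim28 at -0.14 and Dnmt3b at 0.33, outside them. The intervals for Trim28 (-0.10 to -0.05), Ctcf (-0.08 to -0.01) and Dnmt1 (-0.07 to -0.01) lay below 0 and that for Dnmt3a (0.01 to 0.06) above it, while those for Dnmt3b, Zfp57, Tet1 and Tet3 included 0. For Trim28, Ctcf and Dnmt3a the direction depended on the counting. By distinct positions Trim28 was at 0.08 and Ctcf at 0.025, and over coding exons Dnmt3a was at -0.06. Dnmt1 stayed below 0 under every alternative, and was nearest to it by distinct positions, at -0.004. Counting error alone set these intervals, and the spread between brains of the same cross was not measured. Dnmt3b had the widest interval, from -0.25 to 0.25.

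**Figure D5:**
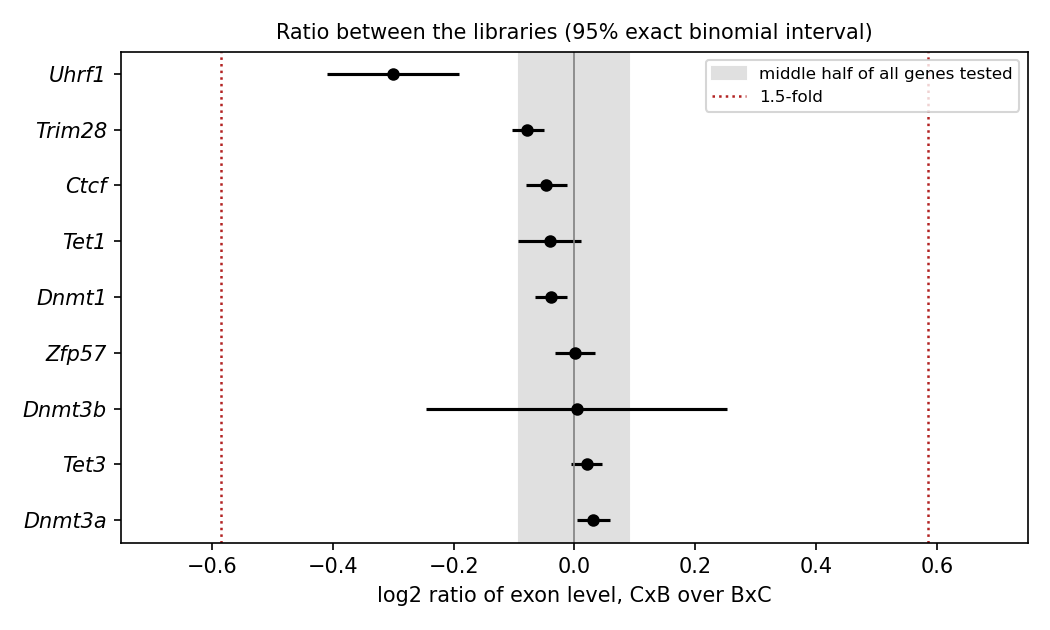
Log2 ratio of exon level, CxB over BxC (x), for the 9 genes with at least 100 reads in each library, with 95% exact binomial intervals; the grey band runs from the lower to the upper quartile of all genes tested and dotted lines mark 1.5-fold. Uhrf1, at -0.30, is the gene outside the band, and 0 pass 1.5-fold.

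Over all 10 genes, 129 of 215 annotated junctions were covered in both libraries, 19 in 1 and 67 in neither. Junctions missing from the UCSC models used for alignment may be among those without reads, and this was not checked. An annotated Tet3 intron of 1 base, with 0 reads, is also in the total. These junctions had 15312 reads in BxC and 12121 in CxB. A further 25 junctions that the annotation does not hold had 262 and 191 reads, and 7 of them were seen in both libraries. The gap of 19 bases in Zfp57 held 227 and 156 of these reads. Of the uncovered junctions, most belonged to Dnmt3l (18), Dnmt3b (14) and Dnmt3a (13).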

How the data were processed

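Whole-brain RNA of 1 BxC and 1 CxB hybrid was analysed. The authors purified mRNA, sequenced 36-base reads and, per the submitters' processing notes, used Novoalign; alignment was to gene models, splice junctions and the genome in mm9. Each line the authors deposited carries a raw count, taken from its values to be a number of reads. Exons came from GENCODE vM1, also mm9. Reads were counted where an aligned block overlapped an exon. Levels carry exact Poisson intervals, shares and ratios exact Clopper-Pearson intervals at 95%. A ratio was called past 1.5-fold with at least 100 reads in each library. Repeated reads are not independent molecules, and alleles were not separated. Named genes were the 10 members and, in each pathway list, the highest and the lowest by level. Xist, the Y-linked genes, Hdac2, Mog and the markers named were chosen after their values were seen. Members and lists were chosen with earlier results of these data known. Python 3.11.15 with NumPy 2.4.6 and SciPy 1.17.1 was used, and counting was tested on simulated data.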

Additional observations from a re-analysis of the deposited data

How the results depend on the processing

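The count of protein-coding genes past 1.5-fold depended on the minimum of reads. With at least 50 reads it was 125 higher and 134 lower in CxB, and with at least 200 reads it was 23 and 28, against 57 and 69 with 100. Among the 10 genes 0 passed under the 3 minimums and under median-ratio scaling. The count of genes with a level of at least 1 stayed at 8 with a minimum of 0.5 or 2 and was 9 by distinct positions, and 120 junctions had 5 or more reads in each library. Counting distinct positions, scaled to the library total of such positions, moved all 20 levels beyond their counting intervals. By that count Dnmt3b reached 1.18 in BxC and 1.08 in CxB, and Ctcf was at 15.7 in BxC and 15.97 in CxB. No paired analysis was possible because each cross had 1 library. Of 177 splice shares, 53 moved beyond their interval with distinct positions. Counting lines, and distinct positions for the count of genes and for donor and acceptor shares, were alternatives added after the data were seen. Coding exons moved 17 of 20 levels and 6 of 9 ratios, and over all alternatives Trim28 ranged from -0.14 to 0.08 in log2 ratio, Ctcf from -0.08 to 0.025, Dnmt3a from -0.06 to 0.07 and Dnmt3b from -0.22 (sense strand) to 0.33 (coding exons). Depth limited Dnmt3b splicing and all statements on Dnmt3l.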
